A study of Rattus norvegicus with 47 samples.

Results

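The genes described here are 10 chaperones and chaperone partners of the cytosol, taken by their symbols from the table of gene counts. They are the HSP90 genes Hsp90aa1 and Hsp90ab1 with the HSP90 activator Ahsa1, the HSP70 gene Hspa8, its larger relatives Hspa4 and Hsph1, the J proteins Dnaja1 and Dnajb1, and the small heat shock proteins Hspb1 and Cryab. All 10 were among the 15868 genes tested, of 22525 in the table. RNA came from kidneys of rats that had carried small metal cylinders, 1 mm wide and 2 mm long, for 12 months. Lead (Pb) is represented by 7 libraries and each other metal by 8: depleted uranium (DU), tungsten (W), aluminium (Al), cobalt (Co) and tantalum (Ta), which is inert and is the control here. The Ta rats thus shared the surgery, the implant and the 12 months with every other group, and no group without a pellet was analysed here. Rats were assigned to the metals at random. Their strain, sex and age and the number of pellets per rat are not given in the sources used here. Each library carries its own code and was treated as a separate rat.

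HSP70 and HSP90 are chaperones that work by binding and splitting ATP. Hspa8 encodes the constitutive cytosolic HSP70, which holds unfolded stretches of protein. J proteins bring it clients and speed its ATPase, and proteins of the HSP110 branch, Hspa4 and Hsph1, release its ADP so that the cycle can start again. HSP90 receives partly folded clients from HSP70, among them kinases and steroid receptors, and Ahsa1 stimulates its ATPase. Small heat shock proteins bind unfolding proteins without ATP and keep them soluble. Many of these genes respond to heat shock factor 1, and in the kidney several of them are known to be abundant in the medulla, where cells live in concentrated salt and urea.

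The library totals lay between 21604755 and 35775818 counts (median 26363810), and single members were counted 694 to 109180 times in a library. Levels are given as CPM, the count as a share of the TMM-scaled library total in the usual unit. No transcript length was used, so levels are compared between groups for 1 gene and never between genes. The 10 proximal tubule markers summed to 1708 to 10760.0 CPM. No marker of the tubule, podocyte, endothelial or smooth muscle lists was at 0 in all 47 libraries, and absence within single groups was not examined. DU replicate 6 stood apart: it held Havcr1, a marker of injured proximal tubule, at 1179 CPM and Lcn2 at 8234 CPM, against 3.86 to 165 and 5.10 to 249.5 CPM in the 45 libraries other than DU replicates 5 and 6, and Slc34a1, a proximal tubule phosphate transporter, at 24.8 CPM against 1355 to 4117. DU replicate 5 had 193 CPM of Havcr1, also above those 45, but its Lcn2 (155 CPM) and Slc34a1 (1864 CPM) lay within their range. These injury genes were chosen after their values were seen, and a part of the results in DU is also given without both libraries.

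Set against Ta, more of the chaperones changed in Pb kidneys than in those of the other metals, as did more of all genes. In Pb 6 of the 10 genes rose (Hsp90ab1, Ahsa1, Hspa8, Dnaja1, Hspb1 and Cryab) and 2 fell (Hspa4 and Hsph1), where 53.7% of all genes tested changed, 24.5% higher and 29.2% lower. In Co 5 rose (Hsp90ab1, Ahsa1, Hspa8, Dnaja1 and Cryab) and none fell, against 25.8% of all genes changed. In Al 3 rose (Ahsa1, Dnaja1 and Cryab) and Hspa4 fell, against 25.2%. In DU Ahsa1 and Hspb1 rose, against 15.3% (7.89% higher, 7.39% lower), and in W Ahsa1 rose, against 1.78%. W and DU cannot be ranked by these counts, since DESeq2 called 3 members in W and 2 in DU. Calls here are adjusted p-values under 0.05 in the two-sided quasi-likelihood test of edgeR, with Benjamini-Hochberg adjustment over all 15868 genes. The median log2 fold change of the 10 genes was 0.34 in Pb against -0.07 over all genes, 0.26 against -0.07 in Co, 0.25 against -0.03 in W, 0.24 against -0.04 in Al and 0.19 against -0.01 in DU. All 5 comparisons share the Ta libraries. In RNA of whole tissue, fewer cells of a type and less RNA per cell cannot be told apart.

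**Figure D1:**
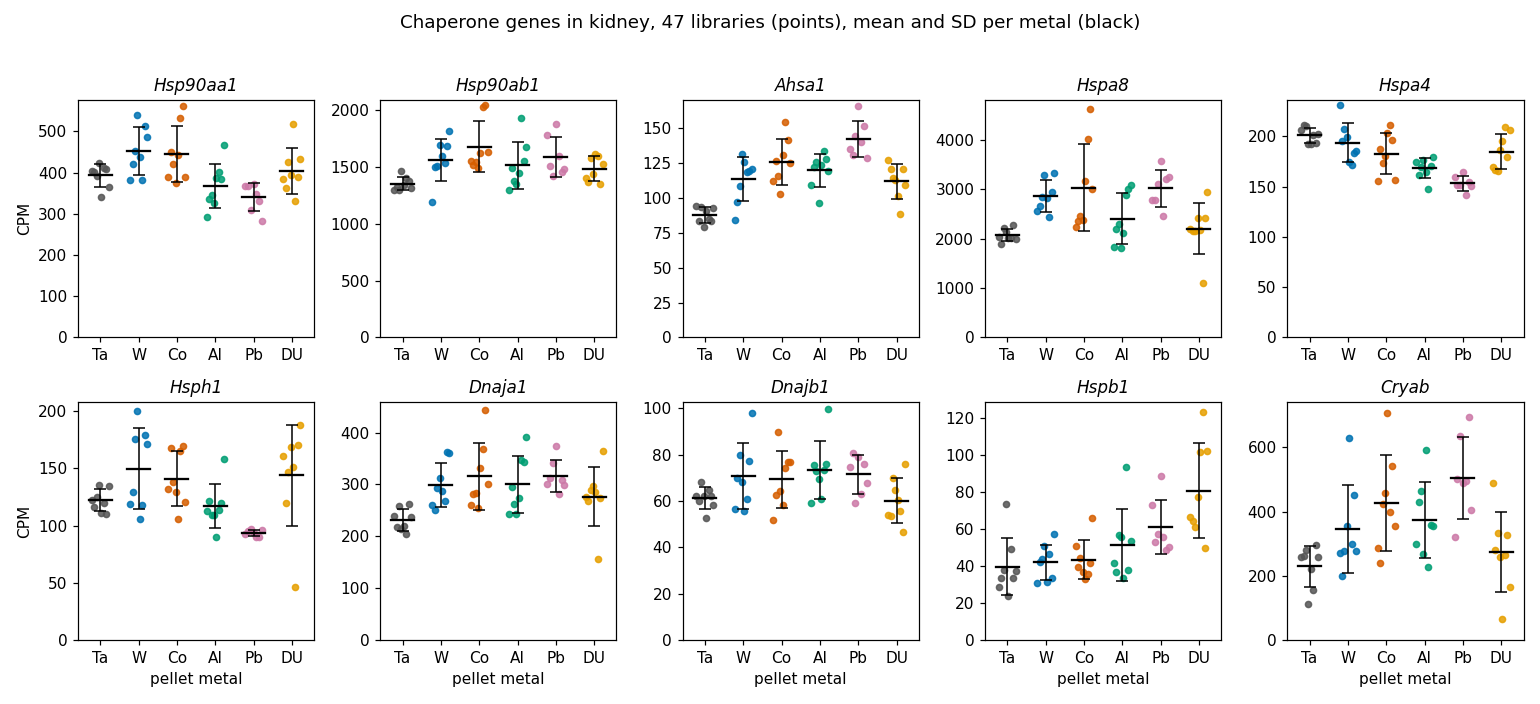
CPM of each chaperone gene (vertical axes, starting at 0) in the 47 libraries, by pellet metal (horizontal axes); points are libraries, black bars the mean and the SD of the 7 or 8 libraries of a metal. Ahsa1 lies at 78.7 to 93.7 CPM in Ta and at 128.1 to 165.4 CPM in Pb, Hspa4 runs the other way, and DU replicate 6 is the lowest point for Hspa8, Hsph1 and Dnaja1.

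The metals were also compared all at once and pair by pair. In the test of any difference among 6 metals 9 of the 10 genes passed, all but Dnajb1, where 58.4% of all genes did. With Ta left out of the contrast 7 of 10 passed, all but Hsp90ab1, Dnaja1 and Dnajb1, where 53.2% did. Between pairs of metals other than Ta, 20 of 100 member comparisons passed, and every one of the 20 had Pb or DU on at least 1 side. Of all genes, 39% were called between W and Pb (21.5% higher and 17.5% lower in W), 25.8% between Co and Pb (14.5% higher and 11.3% lower in Co), 19.1% between Al and Pb (11.1% higher and 7.98% lower in Al) and 49.6% between Pb and DU (23.7% higher and 25.9% lower in Pb). Between W and DU they were 20.7% (10.8% higher and 9.88% lower in W), between Co and DU 25.2% (12.9% higher and 12.3% lower in Co) and between Al and DU 12.7% (7% higher and 5.67% lower in Al). No member was called between W and Al, where 2.68% of all genes were (0.75% higher and 1.93% lower in W), and 0 genes were called between W and Co or between Co and Al. When the 6 means of each gene were put in order, only 1 of 50 neighbouring pairs differed, Ahsa1 between Ta and DU. From the lowest mean to the highest the order was Ta, DU, W, Al, Co and Pb for Ahsa1, Dnaja1 and Cryab, and Ta, DU, Al, W, Pb and Co for Hsp90ab1 and Hspa8. Pb came lowest for Hsp90aa1 (then Al, Ta, DU, Co and W), for Hsph1 (then Al, Ta, Co, DU and W) and for Hspa4 (then Al, Co, DU, W and Ta). The order was DU, Ta, Co, W, Pb and Al for Dnajb1 and Ta, W, Co, Al, Pb and DU for Hspb1.

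Ahsa1 was the member raised in all 5 comparisons with Ta. Its lowest, median and highest levels were 78.7, 87.6 and 93.7 CPM in Ta, 84.2, 118.7 and 131.39 CPM in W, and 102.5, 125.35 and 154 CPM in Co. They were 96.5, 122.5 and 133 CPM in Al, 128.1 to 165.4 with a median of 139.9 CPM in Pb, and 87.9, 113 and 126.9 CPM in DU. Every Co, Al and Pb library lay above every Ta library, and so did 7 of 8 W and 7 of 8 DU libraries. Of all genes, 2.07% lay wholly above Ta in Co, 3.49% in Al and 13% in Pb. The log2 fold change was 0.37 ± 0.08 (SE) in W (adjusted p = 0.0313), 0.52 ± 0.08 in Co (adjusted p = 2.53e-05) and 0.45 ± 0.08 in Al (adjusted p = 8.35e-05). It was 0.70 ± 0.09 in Pb (adjusted p = 4.1e-09), or 1.62-fold, and 0.35 ± 0.08 in DU (adjusted p = 0.00266). Pb was also above W by 0.33 ± 0.09 (adjusted p = 0.00181), above Al by 0.25 ± 0.09 (adjusted p = 0.0332) and above DU by 0.35 ± 0.09 (adjusted p = 0.000777), so the rise in Pb exceeded that in those 3 metals. Against Co the difference of 0.18 ± 0.09 did not pass (adjusted p = 0.127). Without DU replicates 5 and 6 the rise in DU was 0.46 ± 0.08 (adjusted p = 0.000147) and Pb exceeded DU by 0.26 ± 0.09 (adjusted p = 0.0141). The W call did not hold without W replicate 5, 7 or 8, and its highest adjusted p was 0.0872, at a log2 fold change of 0.35.

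The HSP90 genes changed in fewer comparisons than Ahsa1 did. Hsp90ab1, the constitutive HSP90, had 1300.4, 1335 and 1463 CPM (lowest, median, highest) in Ta and 1491, 1592 and 2048 CPM in Co, with no overlap of the groups, as for 2.07% of all genes. It rose in Co by 0.31 ± 0.08 (adjusted p = 0.00636) and in Pb by 0.23 ± 0.09 (adjusted p = 0.0237), where its levels were 1425, 1508 and 1880.1 CPM (lowest, median, highest) and 5 of 7 libraries lay above every Ta library. The Pb call was lost without Pb replicate 1 or 4 (highest adjusted p = 0.0796, log2 fold change 0.19). In W, Al and DU the differences of 0.21 ± 0.08, 0.16 ± 0.08 and 0.13 ± 0.08 did not pass. No pair of metals other than Ta passed, and without DU replicates 5 and 6 the DU value was again 0.13 (adjusted p = 0.425).

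Hsp90aa1, the more stress-responsive HSP90, passed in no comparison with Ta but differed between the other metals. Its levels were 341, 402 and 423 CPM in Ta, 381, 445 and 539 CPM in W, 376, 432 and 562 CPM in Co, 293, 366 and 468 CPM in Al, 283, 348 and 374 CPM in Pb, and 331, 392 and 517 CPM in DU. All 7 Pb libraries were below the Ta median, and every W and every Co library lay above every Pb library. The share of all genes without overlap was not computed between these metals. Of all genes 39% were called between W and Pb and 25.8% between Co and Pb. W exceeded Pb by 0.41 ± 0.10 (adjusted p = 0.000709), Co exceeded Pb by 0.39 ± 0.10 (adjusted p = 0.00253) and DU exceeded Pb by 0.25 ± 0.10 (adjusted p = 0.0293), and without DU replicates 5 and 6 the adjusted p was 0.0386. Pb against Ta was -0.21 ± 0.10 (adjusted p = 0.0658), and in the fit of Pb and Ta alone it passed at -0.18 ± 0.08 (adjusted p = 0.0455). The level of Hsp90aa1 divided by that of Hsp90ab1 in the same library was lowest in Pb, 0.215 ± 0.018 (mean ± SD, n = 7), then 0.243 ± 0.023 for Al, 0.265 ± 0.018 for Co, 0.272 ± 0.031 for DU, and 0.290 ± 0.026 for W and 0.290 ± 0.018 for Ta. The highest Pb ratio, 0.244, lay below the lowest Ta ratio, 0.254. RefSeq lists 16 pseudogenes named after Hsp90aa1 and 23 named after Hsp90ab1, and how reads that fit several places were counted is not given in the sources used here, so both levels are uncertain to that extent.

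Hspa8, the constitutive HSP70, rose in Co and Pb. Its lowest, median and highest levels were 1887, 2026 and 2274 CPM in Ta, 2436, 2826 and 3316 CPM in W, 2233, 2731 and 4626 CPM in Co, 1811, 2248 and 3079 CPM in Al, 2463, 3099 and 3559 CPM in Pb, and 1098, 2188 and 2945 CPM in DU. Every W and every Pb library lay above every Ta library, as did 7 of 8 Co libraries, while Al and DU overlapped Ta. The log2 fold change was 0.55 ± 0.14 in Co (adjusted p = 0.00446) and 0.54 ± 0.15 in Pb (adjusted p = 0.00158). In W it was 0.46 ± 0.14 and missed the threshold (adjusted p = 0.0657). The W value passed in fits without any 1 of 7 libraries, none of them of W or Ta, and in the fit of W and Ta alone (adjusted p = 0.00973). Among all genes, 0.366% lay wholly above Ta in W and 0.17% wholly below it, while 13% lay wholly above Ta in Pb. DU was below W by 0.38 ± 0.14 (adjusted p = 0.0499), below Co by 0.46 ± 0.14 (adjusted p = 0.0143) and below Pb by 0.46 ± 0.15 (adjusted p = 0.00822). None of these 3 calls held without DU replicates 5 and 6: W minus DU was 0.26 ± 0.13 (adjusted p = 0.22), Co minus DU 0.35 ± 0.13 (adjusted p = 0.0752) and Pb minus DU 0.32 ± 0.14 (adjusted p = 0.0514). Against Ta, DU was then 0.24 ± 0.13 (adjusted p = 0.28). Co replicate 7 had the highest level of all 47 libraries, and without it the Co change was 0.43 (adjusted p = 0.0219). RefSeq lists 33 pseudogenes named after Hspa8, the most of any member.

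Dnaja1, a J protein that serves Hspa8, rose in Co, Al and Pb. It had 204, 228 and 262 CPM in Ta, 251, 291 and 362 CPM in W, 254, 292 and 444 CPM in Co, 242, 284 and 392 CPM in Al, 281, 308 and 373 CPM in Pb, and 156, 281 and 365 CPM in DU. All Pb libraries lay above every Ta library, as did 7 of 8 in DU and 6 of 8 in each of W, Co and Al. In Pb 13% of all genes lay wholly above Ta. The log2 fold change was 0.45 ± 0.12 in Co (adjusted p = 0.00514), 0.37 ± 0.12 in Al (adjusted p = 0.0166) and 0.45 ± 0.12 in Pb (adjusted p = 0.0016). W was 0.37 ± 0.12 (adjusted p = 0.0759) and DU 0.25 ± 0.12 (adjusted p = 0.141). Without DU replicates 5 and 6, W rose by 0.40 ± 0.10 (adjusted p = 0.0176) and DU by 0.38 ± 0.11 (adjusted p = 0.019), and the same fit called Hspa8 in W (0.49 ± 0.12, adjusted p = 0.0143). No pair of metals other than Ta differed in Dnaja1, for which RefSeq lists 4 pseudogenes.

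Hspa8 and Dnaja1 followed each other from library to library. In Co their levels separated by replicate number: Hspa8 was at 2233 to 2463 CPM in replicates 1 to 4 and at 2998 to 4626 CPM in replicates 5 to 8, and Dnaja1 at 253.8 to 284.2 and 300.7 to 444 CPM. What the numbers stand for is not given in the sources used here. With group means removed, Pearson's r of their log2 CPM over the 47 libraries was 0.922 and Spearman's rho 0.87, both with an adjusted permutation p of 0.000112 over 45 pairs of members. The raw p of 1e-05 is the smallest that 1e+05 permutations within groups can give. Without DU replicate 6 and Co replicate 7, the 2 libraries farthest from the median, r was 0.872. With the means of replicates 1 to 4 and 5 to 8 of each metal removed, and permuted within both, r was 0.918 and rho 0.819 (adjusted permutation p = 3e-04 and 0.000225), and r was 0.797 in replicates 1 to 4 (24 libraries) and 0.94 in 5 to 8 (23 libraries). Dnaja1 was the gene most like Hspa8 of all tested genes with a mean of at least 1 CPM, and Hspa8 the most like Dnaja1. Next came Ahsa2 (r = 0.793 with Hspa8 and 0.791 with Dnaja1), then Thpo for Hspa8 (r = 0.772) and Hikeshi for Dnaja1 (r = 0.761).

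**Figure D2:**
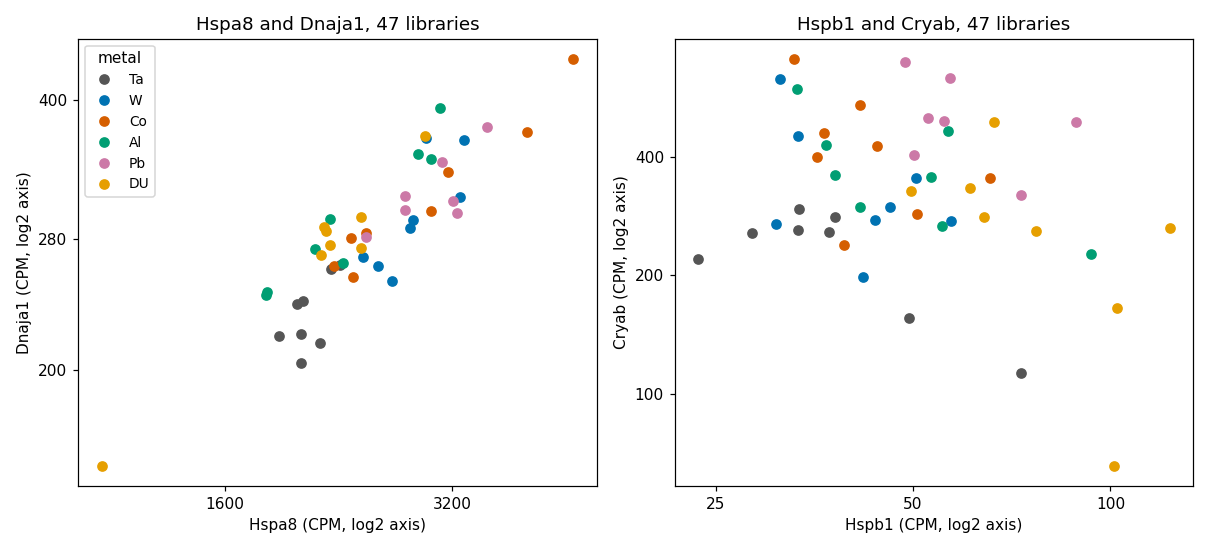
Levels of Hspa8 against Dnaja1 (left) and of Hspb1 against Cryab (right) in the 47 libraries, both axes in CPM on a log2 scale, points coloured by metal. Hspa8 and Dnaja1 rise together from DU replicate 6 (1098 and 156 CPM) to Co replicate 7 (4626 and 444 CPM), while libraries with more Hspb1 tend to have less Cryab.

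The heat shock element, the motif that heat shock factor 1 binds, was looked for in the promoters, and the windows of Hspa8, Hsph1 and Dnaja1 are shown because they hold it. RefSeq's promoter table of the GRCr8 build, which is not the build of the counts, had entries for 8 of the 10 members, with 250 bases before and 50 after the start of each gene. It was searched as 3 alternating units, GAANNTTCNNGAA or TTCNNGAANNTTC, which between them cover both strands. It was found in 3 of the 8 member promoters and in 0.798% of 33469 promoters in the table. Capitals mark it in the sequences below, which stop at the start site for Hspa8 (chr8:50080264-50080513, plus strand) and Hsph1 (chr12:10427218-10427367, plus strand) and cover the first 30 transcribed bases for Dnaja1 (chr5:60638404-60638433, plus strand).
Hspa8: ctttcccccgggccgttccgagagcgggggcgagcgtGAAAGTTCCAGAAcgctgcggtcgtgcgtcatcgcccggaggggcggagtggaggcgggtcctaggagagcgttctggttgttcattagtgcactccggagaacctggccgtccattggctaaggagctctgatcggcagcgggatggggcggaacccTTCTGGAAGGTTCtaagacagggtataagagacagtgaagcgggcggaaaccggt
Hsph1: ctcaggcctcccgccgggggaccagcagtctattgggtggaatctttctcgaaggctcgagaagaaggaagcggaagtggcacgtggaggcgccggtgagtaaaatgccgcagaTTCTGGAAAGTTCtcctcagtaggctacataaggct
Dnaja1: ggccgggcgGAACTTTCCAGAAcgctcggt

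In Hspa8 the element occurred at separate places in the window, from base -213 to -201 and from -55 to -43 before the start. In Hsph1 it lay from -36 to -24, and in Dnaja1 from base 10 to 22 after the start. The shorter 2-unit forms GAANNTTC or TTCNNGAA, which are contained in the longer ones, were in 5 of the 8 member promoters, the same 3 with Dnajb1 and Hspb1, and in 15.9% of all promoters. Neither form was in the windows of Hsp90ab1, Hspa4 and Ahsa1. The levels of the 3 genes with the longer element did not run alike across metals: Hspa8 and Dnaja1 rose in Pb and Hsph1 fell. Within groups, though, Hsph1 went with both. With group means removed r was 0.669 with Hspa8 and 0.697 with Dnaja1 (adjusted permutation p = 0.001 and 0.000562). Without DU replicates 5 and 6 these r values were 0.493 and 0.544. Whether the element has a part in this was not tested.

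Hspa4 and Hsph1, the exchange factors of HSP70, were the members that fell. Hspa4 had 192, 202 and 211 CPM in Ta (lowest, median, highest), 172, 190.4 and 231 CPM in W, 155, 184 and 211 CPM in Co, 148, 169.8 and 179.8 CPM in Al, 141.15, 152 and 165 CPM in Pb, and 166, 183 and 209 CPM in DU. Every Al and every Pb library lay below every Ta library, which held for 1.4% and 13.9% of all genes. Hspa4 fell in Al (log2 fold change -0.26 ± 0.07, adjusted p = 0.00332) and in Pb (-0.39 ± 0.07, adjusted p = 4.5e-06). Pb was also below W (W minus Pb 0.34 ± 0.07, adjusted p = 0.000101), below Co (Co minus Pb 0.25 ± 0.07, adjusted p = 0.00468) and below DU (Pb minus DU -0.27 ± 0.07, adjusted p = 0.00111, and -0.24 ± 0.07, adjusted p = 0.00499, without DU replicates 5 and 6). The W, Co and DU differences from Ta, -0.06 ± 0.07, -0.14 ± 0.07 and -0.12 ± 0.07, did not pass. Its pooled SD within groups, 0.12 on the log2 scale, was the smallest of the 10 members.

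Hsph1 fell in Pb and was uneven elsewhere. Its levels were 110.3, 121.2 and 135.8 CPM in Ta, 105.4, 150.7 and 200.1 CPM in W, 105.5, 135.2 and 169.8 CPM in Co, 90.1, 114 and 158 CPM in Al, 89.7, 93.1 and 97.3 CPM in Pb, and 46.4, 156 and 188 CPM in DU. The Pb libraries were the tightest of all groups and lay below every Ta library, as for 13.9% of all genes. The Pb change was -0.38 ± 0.16 (adjusted p = 0.0372), and it lost its call in 16 of the 47 fits that left out 1 library, 7 of them without a Pb and 6 without a Ta library (highest adjusted p = 0.0776, log2 fold change -0.34). Pb was below W by 0.68 ± 0.16 (adjusted p = 0.00059), below Co by 0.59 ± 0.16 (adjusted p = 0.00459) and below DU by 0.62 ± 0.16 (adjusted p = 0.00116), with no overlap against W and Co. How many of all genes had no overlap between these metals was not computed. In DU 6 of 8 libraries were above every Ta library and DU replicate 6 was below every one. With all libraries the DU value was 0.24 ± 0.15 (adjusted p = 0.311), and without DU replicates 5 and 6 it was 0.42 ± 0.12 (adjusted p = 0.0161). In that fit Pb minus DU was -0.78 ± 0.12 (adjusted p = 5.76e-06) and Al minus DU -0.45 ± 0.12 (adjusted p = 0.0302), the second of which had not passed with all libraries. The gene most like Hsph1 within groups was Slc17a2 (r = 0.765), followed by the HSP90 co-chaperone Fkbp4 (r = 0.759) and Map3k5 (r = 0.752), and for Hspa4 it was Rora (r = 0.68). These rankings include DU replicate 6, where Hsph1 was lowest, and were not repeated without it.

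Dnajb1, a J protein known as strongly heat-inducible, passed in none of the comparisons. Its levels were 52.6, 62.0 and 68.2 CPM in Ta, 55.7, 69.1 and 98.2 CPM in W, 52.0, 69.4 and 90.0 CPM in Co, 59.1, 73.1 and 99.95 CPM in Al, 59.1, 74.9 and 80.7 CPM in Pb, and 46.8, 58.1 and 76.2 CPM in DU. All groups overlapped Ta. The log2 fold changes were 0.21 ± 0.11 in W, 0.18 ± 0.11 in Co, 0.26 ± 0.11 in Al (adjusted p = 0.0765), 0.22 ± 0.11 in Pb (adjusted p = 0.0962) and -0.03 ± 0.11 in DU. The Al and Pb values passed in fits of those metals and Ta alone (adjusted p = 0.0272 and 0.0125), so this gene sat near the threshold in both.

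The small heat shock proteins gave the largest single log2 fold changes of the members, Cryab in Pb and Hspb1 in DU, while Hspb1 in W and Co was among the smallest. Cryab, which encodes alpha B-crystallin, had 113, 258 and 295 CPM in Ta, 199, 288 and 630.5 CPM in W, 238, 412 and 708 CPM in Co, 227, 357 and 593 CPM in Al, 319.5, 494 and 696 CPM in Pb, and 65.8, 272 and 489.9 CPM in DU. All Pb libraries lay above every Ta library, as for 13% of all genes, and 6 of 8 did so in Co and in Al. Cryab rose in Pb by 1.14 ± 0.26 (adjusted p = 0.000328), or 2.2-fold, in Co by 0.89 ± 0.26 (adjusted p = 0.00963) and in Al by 0.70 ± 0.26 (adjusted p = 0.0387). The Al call was lost without Al replicate 2, 3, 5 or 7 or without Ta replicate 4 or 6 (highest adjusted p = 0.105, log2 fold change 0.58). W was 0.58 ± 0.26 (adjusted p = 0.183) and DU 0.25 ± 0.26 (adjusted p = 0.5682), and Pb exceeded DU by 0.89 ± 0.26 (adjusted p = 0.00476). Without DU replicates 5 and 6, DU was 0.46 ± 0.24 (adjusted p = 0.242) and Pb exceeded it by 0.69 ± 0.25 (adjusted p = 0.0218). In RefSeq Cryab overlaps Hspb2, another small heat shock protein gene, and without a known strand setting their reads cannot be told apart where they overlap. Hspb2 went from 7.85 ± 2.28 CPM in Ta to 22.2 ± 6.99 CPM in Pb (mean ± SD, n = 8 and 7), a log2 fold change of 1.497 ± 0.26 (adjusted p = 5.81e-06).

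Hspb1, which encodes HSP27, was the member raised most in DU. Its levels were 23.5, 35.3 and 73.1 CPM in Ta, 30.9, 42.8 and 57.2 CPM in W, 32.9, 40.4 and 65.6 CPM in Co, 33.3, 47.3 and 93.5 CPM in Al, 48.5, 55.8 and 88.6 CPM in Pb, and 49.6, 71.7 and 123.2 CPM in DU. Ta replicate 4, at 73.1 CPM, was apart from the other 7 Ta libraries, which ended at 49.3 CPM, just under the lowest DU library. All 8 DU and all 7 Pb libraries lay above the Ta median, and 4 of 8 DU libraries above every Ta library. Hspb1 rose in DU by 1.03 ± 0.20 (adjusted p = 0.000369), or 2.04-fold, and in Pb by 0.62 ± 0.21 (adjusted p = 0.0107). Without DU replicates 5 and 6 the DU rise was 0.86 ± 0.21 (adjusted p = 0.00343), with 49.6 to 102.2 CPM in the 6 libraries left. DU exceeded W by 0.94 ± 0.20 (adjusted p = 0.00114), Co by 0.90 ± 0.20 (adjusted p = 0.00151) and Al by 0.66 ± 0.20 (adjusted p = 0.0265), but not Pb (0.41 ± 0.21, adjusted p = 0.102). Without DU replicates 5 and 6, W minus DU was -0.75 ± 0.21 (adjusted p = 0.0153) and Co minus DU -0.70 ± 0.21 (adjusted p = 0.0218), while Al minus DU, -0.46 ± 0.21, no longer passed (adjusted p = 0.195). Pb exceeded W by 0.54 ± 0.21 (adjusted p = 0.0367). The genes most like Hspb1 within groups were Anxa1 (r = 0.824), Shisa5 (r = 0.821) and Ier5l (r = 0.815). Anxa1 was at 277 CPM in DU replicate 6, 266 in DU replicate 5 and 268 in Ta replicate 4, and was highest, 282 CPM, in Al replicate 6, against a median of 97.8 CPM in the 45 libraries other than DU replicates 5 and 6.

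The small heat shock proteins ran against each other within groups. Pearson's r of Hspb1 and Cryab with group means removed was -0.565 and rho -0.563 (adjusted permutation p = 0.000562 and 0.000619, 47 libraries), and r was -0.49 without Ta replicate 4 and Al replicate 6, the libraries farthest from the median. Without DU replicates 5 and 6 it was -0.608. With the means of both number classes removed it was -0.562 (rho -0.499, adjusted permutation p = 0.0085 and 0.00971), with -0.464 in replicates 1 to 4 and -0.615 in replicates 5 to 8. This was the only negative one of the 23 member pairs, of 45, that passed, and 16 of the 23 also passed with both number classes removed. The genes most like Cryab were Slc23a3 (r = 0.915), Tgfbi (r = 0.906) and Hsd11b1 (r = 0.899). Among the other pairs Hsp90aa1 and Hsp90ab1 had an r of 0.711 (rho 0.716, 0.707 without DU replicate 5 and Al replicate 8, adjusted permutation p = 0.000112 for both). With number classes removed their r was 0.631 and rho 0.68 (adjusted permutation p = 0.00259 and 0.000225). The gene most like Hsp90aa1 was Chordc1, an HSP90 partner (r = 0.802), then the HSP70-HSP90 adaptor Stip1 (r = 0.733) and Hsp90ab1 itself. For Hsp90ab1 it was Jund (r = 0.783), for Ahsa1 Mettl23 (r = 0.813) and for Dnajb1 Mapkapk3 (r = 0.573).

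**Figure D3:**
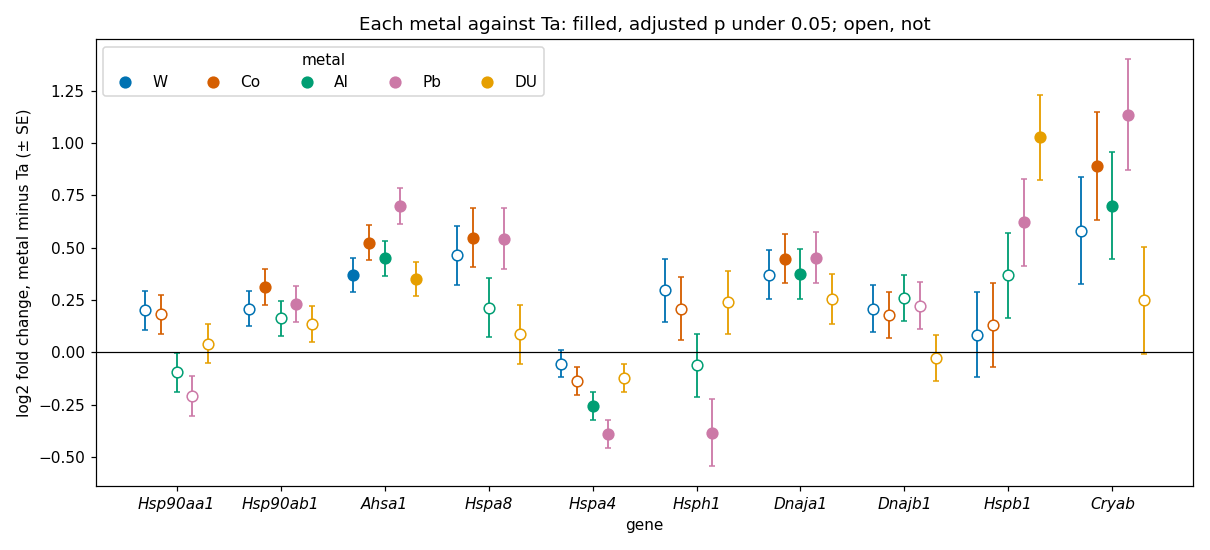
Log2 fold change against Ta (vertical axis) of each chaperone gene (horizontal axis), coloured by metal, with SE bars; filled points passed edgeR's test at an adjusted p under 0.05 and open points did not. Ahsa1 is filled for all 5 metals, Dnajb1 and Hsp90aa1 for none, and Hspa4 and Hsph1 are filled below 0, Hspa4 in Al and Pb and Hsph1 in Pb.

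Other measures of the tissue moved with the metals beside these genes. The 10 markers of smooth muscle, pericytes and fibroblasts summed to 441 to 1172 CPM in Ta, 260.3 to 578 in W, 149 to 558 in Co, 177 to 551 in Al, 169 to 315 in Pb and 342 to 1797 in DU. Every Pb library, and 6 of 8 in W, Co and Al, lay below every Ta library, and 9 of the 10 markers fell in Pb, 8 in Co, 6 in Al, 2 in W and none in DU. In Pb 6 of 6 podocyte and 7 of 7 endothelial markers fell too, as did 6 and 6 of them in Al and 2 and 2 in Co, with Pb sums of 44.4 to 90.5 CPM against 157 to 382 in Ta for podocytes and 44.1 to 88.6 against 189.9 to 261 for endothelium. Of the 10 proximal tubule markers 6 fell and 1 rose in Pb, 3 fell and 1 rose in Al, 1 rose in Co and none passed in W or DU, and their sums were 6426 to 8824 CPM in Ta, 5254 to 6855 in Pb and 4173 to 7108 in Al, with 6 of 7 Pb and 5 of 8 Al libraries below every Ta library. In Pb 3 of 3 distal convoluted tubule markers fell and 3 of 6 intercalated cell markers rose. Of 7 collecting duct markers 3 rose and 1 fell there, and of 6 thick ascending limb markers 1 rose and 3 fell. Of all genes 24.5% rose and 29.2% fell in Pb, 13.6% and 12.2% in Co, and 12.8% and 12.4% in Al. In W 1.42% rose and 0.366% fell, and in DU 7.89% and 7.39%. Of 7 macrophage markers 2 fell in Pb, near the share of all genes that fell there, and 2 rose in DU. This DU count was not repeated without DU replicates 5 and 6. The 8 markers of thin limb and inner medulla summed to 154 to 238 CPM in Ta, 84.7 to 197 in Co, 103.6 to 207 in Pb and 157 to 377 in DU, and 3 of them fell in Pb and 2 in Co. A ribosomal balance, the average log2 CPM over 73 genes of ribosomal proteins less the average over 23 genes of very large proteins, was highest in Pb at 3.33 ± 0.49 (mean ± SD, n = 7) and lowest in Ta at 1.58 ± 0.30 (n = 8), with 2.53 ± 0.43 for Al, 2.40 ± 0.40 for Co, 2.39 ± 0.36 for DU and 1.97 ± 0.26 for W.

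Fits that held these measures as covariates kept some calls and not others. With the smooth muscle markers as a covariate, the calls in Pb were Hspa4 at -0.40 ± 0.09, Ahsa1 at 0.45 ± 0.10 and Hspb1 at 1.101 ± 0.26, which had been called without it, and Hsp90aa1 at -0.38 ± 0.12, which had not (adjusted p = 0.000677, 0.000463, 0.00113 and 0.0168). In that fit Cryab in Pb was 0.24 ± 0.27 (adjusted p = 0.542), Hspa8 0.19 ± 0.18 and Dnaja1 0.12 ± 0.14, and no member was called in Co, where 0.523% of all genes still were, or in W, where 0 genes were. DU kept Ahsa1 at 0.35 ± 0.07 (adjusted p = 0.000409) and Hspb1 at 1.02 ± 0.19 (adjusted p = 0.000128), and Al kept Hspa4 and Ahsa1 and added Hspb1. With the ribosomal balance as a covariate the calls left were Ahsa1 and Hspa4 in Pb (0.46 ± 0.14, adjusted p = 0.0368, and -0.41 ± 0.11, adjusted p = 0.0205) and Ahsa1 in Co (0.41 ± 0.10, adjusted p = 0.0203). Hspb1 in DU was then 0.58 ± 0.21 (adjusted p = 0.131) and in Pb -0.34 ± 0.30, while Cryab in Pb was 1.12 ± 0.47 (adjusted p = 0.121). The rise of Hsp90ab1 in Pb changed sign in that fit, to -0.22 ± 0.12 (adjusted p = 0.249). All these measures differ between the metals, so in such fits the metal and the measure cannot be told apart in full, and the share of all genes called moves as well. With the smooth muscle covariate it was 30.2% in Pb, 17.7% in DU and 6.55% in Al. With the balance it was 8.52% in Pb, 3.69% in Co, 2.93% in DU, 2.89% in Al and 0.0441% in W. Their part in the chaperone results was not tested beyond these fits.

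Within groups, where the metal is constant, 7 of 30 relations between a member and these 3 measures passed. Cryab (r = -0.603, rho -0.606, adjusted permutation p = 0.00045 and 7e-04), Ahsa1 (r = -0.549, rho -0.611, adjusted permutation p = 0.00247 and 6e-04) and Dnaja1 (r = -0.487, rho -0.534, adjusted permutation p = 0.0119 and 0.00468) were lower in libraries with more of the smooth muscle markers. Hspb1 was higher in them (r = 0.392, rho 0.469, adjusted permutation p = 0.0246 and 0.0079). Without Co replicates 5 and 1, the libraries farthest from the median of that measure, the r values were -0.567, -0.562, -0.484 and 0.36. Hsp90ab1 went with the ribosomal balance (r = 0.618, rho 0.579, adjusted permutation p = 0.00045 and 0.00112) and against the inner medulla markers (r = -0.555, rho -0.619, adjusted permutation p = 5e-04 and 6e-04). Hspb1 also went with the balance by r (0.462, adjusted permutation p = 0.009), though not by rho (0.313, adjusted permutation p = 0.0799). Of these 7 relations 3 held with the number classes removed: smooth muscle markers with Cryab (r = -0.561, rho -0.599, adjusted permutation p = 6e-04 and 0.0033) and with Hspb1 (r = 0.518, rho 0.491, adjusted permutation p = 0.00915 and 0.0261), and the balance with Hspb1 by r (0.512, adjusted permutation p = 0.0448). The smooth muscle relations of Ahsa1 and Dnaja1 then had r of -0.279 and -0.219 (adjusted permutation p = 0.363 and 0.484). Those of Hsp90ab1 had 0.415 with the balance and -0.452 with the inner medulla markers (adjusted permutation p = 0.119 and 0.0739).

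The partners of these chaperones were read as lists. Of 19 HSP90 co-chaperones 11 rose and 3 fell in Pb, 8 rose in Co, 8 rose and 1 fell in Al, 3 rose and 1 fell in DU (6 and 0 without DU replicates 5 and 6, when 11.3% of all genes were called) and none passed in W. Of all genes 24.5% rose and 29.2% fell in Pb, 13.6% and 12.2% in Co, and 12.8% and 12.4% in Al. The 4 of 19 called in DU with all libraries stand beside 15.3% of all genes. Among the co-chaperones with the smallest p over the 6 metals were Pih1d1, a subunit of the R2TP complex, and Sugt1. In Pb they rose by 0.80 ± 0.10 and 1.04 ± 0.13 on the log2 scale (adjusted p = 1.58e-08 and 8.27e-09). Sugt1 went from 28.8 ± 5.65 CPM in Ta to 59.1 ± 7.96 CPM in Pb (mean ± SD, n = 8 and 7), and the groups did not overlap (19.2 to 36.01 against 50.6 to 72.4 CPM). Wholly above Ta in Pb lay 13% of all genes. The list's median log2 fold change was 0.30 in Pb, 0.18 in both Co and W, 0.16 in Al and 0.10 in DU, beside the medians over all genes given above.

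Of 14 other HSP70 proteins and exchange factors tested, 6 rose and 4 fell in Pb, 5 rose and 2 fell in Co, 5 rose and 3 fell in Al, 2 rose and 1 fell in DU, and none passed in W. Of all genes 24.5% rose and 29.2% fell in Pb, 13.6% and 12.2% in Co, 12.8% and 12.4% in Al, so the 3 of 14 called in DU stand beside 15.3% of all genes. Hspbp1 and Bag1, both nucleotide exchange factors of HSP70, rose in Pb by 0.90 ± 0.09 (adjusted p = 3.64e-11) and 0.75 ± 0.09 (adjusted p = 1.41e-09). Hspbp1 also rose in Co (0.43 ± 0.09), Al (0.61 ± 0.09) and DU (0.46 ± 0.09). Hspa4l, the closest relative of Hspa4, fell as Hspa4 did, with log2 fold changes of -0.80 ± 0.14 in Pb (adjusted p = 6.12e-06) and -0.50 ± 0.13 in Al (adjusted p = 0.00521), and also in DU at -0.42 ± 0.13 (adjusted p = 0.0252), a call that did not hold without DU replicates 5 and 6 (-0.25 ± 0.13, adjusted p = 0.249).

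The other cytosolic J proteins were split as well. Of 12, 4 rose and 6 fell in Pb, 2 rose and 3 fell in Al, 2 rose in Co, 1 rose and 1 fell in DU and none passed in W. The 2 of 12 in Co and the 2 of 12 in DU are below or near the shares of all genes called there, 25.8% and 15.3%. In Pb 24.5% of all genes rose and 29.2% fell, and in Al 12.8% and 12.4%. Dnajc9, which works with histones, rose in Pb by 0.61 ± 0.09 (adjusted p = 9.16e-08) and Dnajc21, of ribosome assembly, by 0.50 ± 0.12 (adjusted p = 0.000646). Dnajc13, an endosomal J protein, fell (-0.69 ± 0.13, adjusted p = 2.2e-05). Of 6 other small heat shock proteins 1 rose and 2 fell in Pb, only Hspb2 rose in Co and Al, and none passed in W or DU. These counts are near the shares of all genes called in Pb (53.7%) and raised in Co (13.6%) and Al (12.8%). Hspb8 fell in Pb (log2 fold change -0.83 ± 0.25, adjusted p = 0.00384) and so did Hspb7 (-1.26 ± 0.50, adjusted p = 0.0316), from Ta means of 6.95 and 1.36 CPM. The test of Hspb7 over the 6 metals did not pass (adjusted p = 0.0696).

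TRiC, the ring chaperonin that folds actin and tubulin, and prefoldin, which feeds it, rose most evenly. Of 13 subunits tested 12 rose in Pb, 12 in Co, 11 in Al, 8 in DU and 1, Pfdn2, in W, and none fell. The shares of all genes that rose were 24.5%, 13.6%, 12.8%, 7.89% and 1.42%. Pfdn2 had 33.2 ± 2.95 CPM in Ta and 90.6 ± 12.6 CPM in Pb (mean ± SD, n = 8 and 7), a log2 fold change of 1.45 ± 0.11 (adjusted p = 2.88e-14), and 0.47 ± 0.11 in W (adjusted p = 0.0313). Pfdn6 and Pfdn5 rose in Pb by 1.05 ± 0.11 and 1.14 ± 0.11 (adjusted p = 7.53e-11 and 2.35e-11). The list's median was 0.56 in Pb, 0.38 in Co, 0.31 in Al, 0.28 in DU and 0.24 in W.

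**Figure D4:**
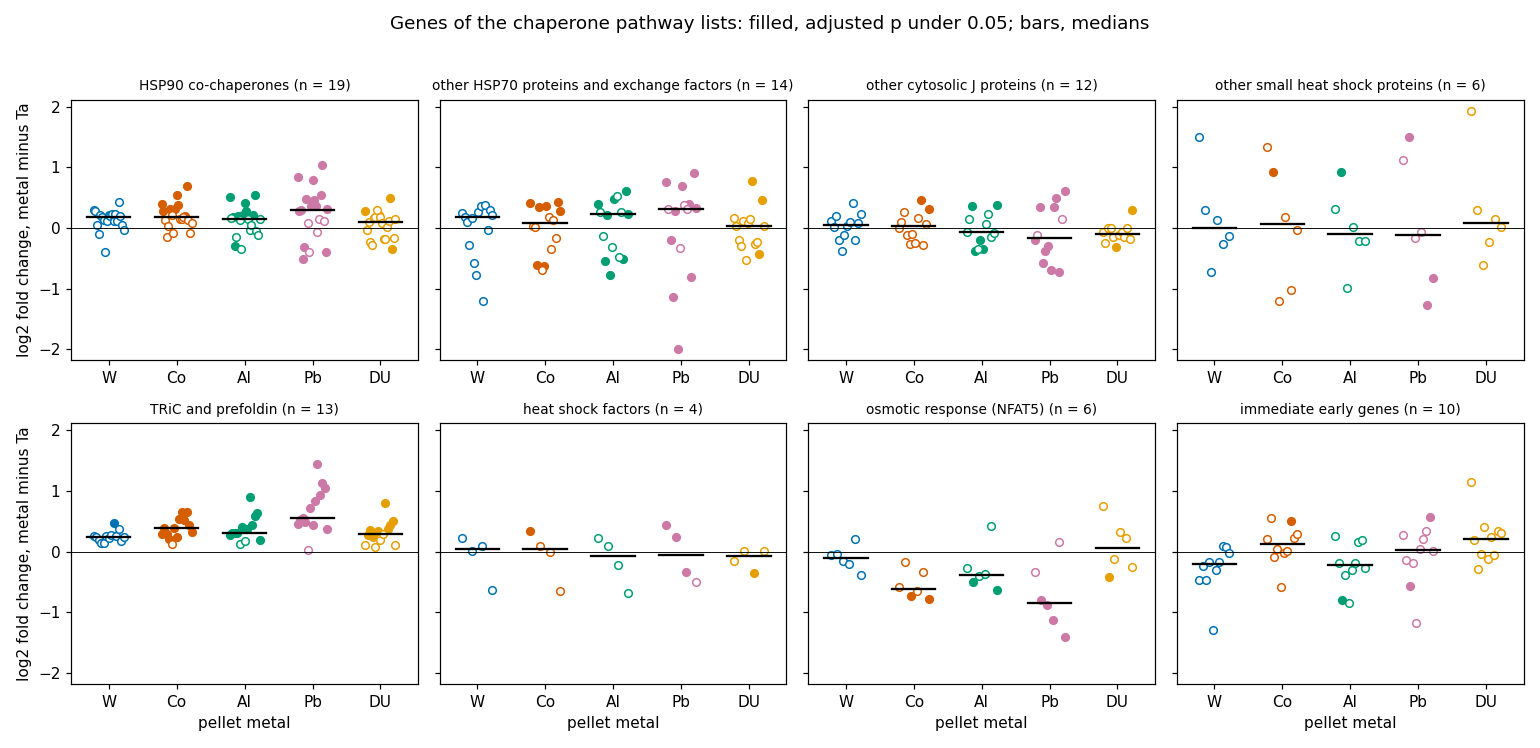
Log2 fold change against Ta (vertical axes) of every tested gene of the 8 chaperone-related lists, by metal (horizontal axes); points are genes, filled where the adjusted p was under 0.05, and black bars are list medians. TRiC and prefoldin medians lie between 0.24 and 0.56, while J proteins and HSP70 exchange factors spread to both sides in Pb.

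Of 4 genes on the list of heat shock factors, which includes their partner Hsbp1, 2 rose and 1 fell in Pb, beside 53.7% of all genes called. Hsf1 rose in Pb by 0.24 ± 0.10 (adjusted p = 0.0345) from 42.2 ± 4.74 to 49.7 ± 5.44 CPM, though its test over the 6 metals did not pass (adjusted p = 0.185). Hsbp1, which binds HSF1, rose in Pb by 0.44 ± 0.10 (adjusted p = 0.000298) and in Co by 0.33 ± 0.10 (adjusted p = 0.0109). Hsf2 fell in Pb (log2 fold change -0.34 ± 0.12, adjusted p = 0.0172) and in DU (-0.35 ± 0.12, adjusted p = 0.0329), there not without DU replicates 5 and 6 (-0.30 ± 0.13, adjusted p = 0.118). Of 6 genes of the osmotic response, Hspa4l among them, 4 fell in Pb, 2 in Co, 2 in Al and 1 in DU (Hspa4l itself), and none rose. Of all genes 29.2% fell in Pb, 12.2% in Co, 12.4% in Al and 7.39% in DU. Of this osmotic response list, Akr1b1, Slc5a3, Slc6a6 and Slc6a12 are also thin limb and inner medulla markers, so those lists are not independent. Slc6a6, the taurine transporter, fell in Pb (log2 fold change -1.41 ± 0.18, adjusted p = 1.77e-08) and Nfat5, the transcription factor of that response, at -0.89 ± 0.22 (adjusted p = 0.000523). Of 10 immediate early genes 1 rose and 1 fell in Pb, Junb by 0.57 ± 0.16 (adjusted p = 0.00278) and Egr1 at -0.56 ± 0.23 (adjusted p = 0.0361), and at most 1 passed in any other comparison with Ta. The 2 of 10 in Pb are below the 53.7% of all genes called there.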

How the data were processed

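Kidney RNA of 47 rats was analysed. The file deposited by the authors holds a whole-number count for each gene and library, not normalized. The submitters' processing notes name STAR 2.7.2a, featureCounts, Subread 1.6.4 and the mRatBN7.2 build. Which annotation and strand setting were used, and how multiply mapped reads were counted, is not given in the sources used here. Groups came from the metal named in the labels, and 29 lines that name no gene were left out. The labels name separate samples and no shared litter or batch, so p-values measure the spread between these samples.

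Counts were filtered with filterByExpr, scaled by TMM and fitted over all 47 libraries with edgeR 4.0.16 (limma 3.58.1, R 4.3.3) by its quasi-likelihood test, with Benjamini-Hochberg adjustment over all genes and a threshold of 0.05. No within-group pair of libraries was a copy: in 161 such pairs chi-square divided by its degrees of freedom was at least 15.7. Likeness between genes used log2 CPM with a prior count of 2 and group means removed.

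The text names all 10 members, the 3 genes of each list with the smallest p over the 6 metals, and for each member up to 3 genes most like it. The result for 1 gene of these lists is not reported here. Members, lists, tests and alternatives were chosen with earlier results of these data known. Alternatives were DESeq2 1.42.0, limma voom, other scalings and filters, fits of only the groups compared, covariates, a replicate block and each library left out. The fit without DU replicates 5 and 6, and correlations with the means of replicates 1 to 4 and 5 to 8 removed, were added after seeing the data. Same-numbered libraries of different metals did not deviate together: over 115 pairs the median correlation was 0.0116 (-0.353 to 0.36), so the numbers were not taken as pairs.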

Additional observations from a re-analysis of the deposited data

Results flagged for a closer look

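Of 60 sets of a gene and a metal tested with Dixon's criterion, 5 held 1 library far from the others, and chance gives about 1 in 20. In DU, replicate 6 was lowest for Hspa8 (1098 CPM, the next library 2147) and for Dnaja1 (156.4 CPM, the next 268.8), and this library also had 24.8 CPM of Slc34a1 and 1179 CPM of Havcr1. In Al, replicate 8 was highest for Hsph1 (158.5 CPM, the next 121.1) and for Dnajb1 (99.95 CPM, the next 76.19). Al replicate 6 was highest for Hspb1 (93.51 CPM, the next 56.53), and it had the highest Havcr1 of the 45 libraries other than DU replicates 5 and 6, at 165.3 CPM. Without Al replicate 6 the Hspb1 difference in Al was 0.19 on the log2 scale (adjusted p = 0.529, edgeR), and without Ta replicate 4 it was 0.58 and passed (adjusted p = 0.0249, edgeR), against 0.37 with all libraries (adjusted p = 0.182).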

How the results depend on the processing

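Counts of called members were within 1.5 times of those reported for RLE and upper quartile scaling and without a filter. In W, where 1 member was called, DESeq2, limma voom, a filter of 1 CPM in 7 libraries, the fit of only the groups compared and the fit without DU replicates 5 and 6 called 3 each, where 1.72% (limma voom) to 7.03% (without DU replicates 5 and 6) of all genes were called. A term for lower or higher replicate numbers called 2 in W. In DU, where 2 were called, limma voom called 5 (28.7% of all genes) and the fit without DU replicates 5 and 6 called 4 (11.3%). With the inner medulla covariate 3 were called in Co: Ahsa1 and Cryab, called before, and Hspa4, which was lower (-0.21, adjusted p = 0.0328). The smooth muscle covariate left 0 in W, 0 in Co and 4 in Pb, 5 in the test over 6 metals, 4 in that without Ta, and 11 over the pairs of metals. The ribosomal balance covariate left 2 in Pb, 1 in Co and 0 each in W, Al and DU, and 12 over the pairs.

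Directions reversed mostly with the ribosomal balance covariate. There Hspb1 was -0.3379 in Pb, -0.2961 in Co, -0.1512 in Al and -0.1121 in W. Hsp90ab1 was -0.0837 in Al, -0.2168 in Pb and -0.0706 in DU. Hspa8 was -0.0418 in Al and -0.1121 in DU, Hsp90aa1 -0.0395 in DU and Hsph1 0.1283 in Al. With the smooth muscle covariate Hspa8 in Al was -0.031. Dnajb1 in DU, reported at -0.03, was 0.0086 with DESeq2, 0.0085 with RLE scaling, 0.0036 with upper quartile scaling, 0.0047 with the stricter filter and 0.0232 without DU replicates 5 and 6. The cause was not tested. Of these results only Hsp90ab1 and Hspb1 in Pb had been called.

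Leaving out each library in turn gave 6 to 8 calls in Pb (6 without Pb replicate 1 or 4), 5 in Co, 3 to 5 in Al, 2 to 4 in DU (4 without DU replicate 6) and 0 to 3 in W (0 without W replicate 5 or 8). It gave 8 to 10 over the 6 metals, 6 to 7 without Ta and 17 to 21 over the pairs, and Dnajb1 in DU ranged from -0.0706 to 0.0327. With RLE scaling Hsph1 in Pb was no longer called (adjusted p = 0.054, edgeR).

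With the replicate number as a block, 9 members were called in Pb, 5 each in Al and Co, 2 in DU and 1 in W, with 10 over the 6 metals, 7 without Ta and 22 over the pairs. Dnajb1 was added in Al (0.24, adjusted p = 0.0427) and in Pb (0.26, adjusted p = 0.0163).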
